A study of Mus musculus with 27 samples.

Results

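The response to forskolin was examined in C2C12 cells that expressed the Δpro#3 mutant of NFIA, by comparing 3 samples at day 7 treated with 10 µM forskolin for 4 h with 3 samples at day 7 that had no forskolin. These 6 samples were taken by their labels out of the 27 of the study, and all genes of the files were used. C2C12 is a line of mouse myoblasts, which normally fuse into muscle fibers. The Δpro#3 mutant is NFIA, a transcription factor of brown fat, without a proline-rich stretch at its C-terminal end, and it was introduced with a pMXs retrovirus. The same pair of conditions was available for control cells and for cells expressing full-length NFIA, again with 3 samples per group. These 12 samples shared the fit, and so its estimate of the spread, and were used to compare the responses. By the labels, all cells, controls included, had gone through the same adipogenic medium. Its first step held isobutylmethylxanthine (a phosphodiesterase inhibitor), indomethacin, dexamethasone, insulin, T3 and rosiglitazone (a PPARγ agonist), and insulin, T3 and rosiglitazone stayed in the medium afterwards. What the samples without forskolin received in its place is not given in the sources used here.

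Forskolin activates adenylyl cyclase, which makes cyclic AMP. Cyclic AMP releases the catalytic subunits of protein kinase A, which phosphorylate CREB and related factors, and phosphodiesterases break cyclic AMP down again. In brown fat this is the pathway by which noradrenaline, acting through beta-adrenergic receptors, starts lipolysis and thermogenic gene expression. In myoblasts and fibroblasts the same pathway is also known to relax the actin cytoskeleton and so to lower the activity of the factors SRF and YAP.

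CREB family proteins bind the cyclic AMP response element TGACGTCA and, more weakly, the shorter element TGACG. To show what such sites look like in genes that the results turn on, the 250 bases before the start of 6 genes are printed from the RefSeq promoter table (build GRCm38.p6), 5′ to 3′ on the strand of the gene. Capitals mark TGACGTCA and TGACG on either strand. Has1 and Dio2 hold the full element, Fos is the textbook target of CREB, and Nr4a1, Nr4a2 and Nr4a3 are early genes whose response differed between Δpro#3 mutant and full-length NFIA-expressing cells. These 6 genes were chosen after their values were seen.
Has1, chr17:17855189-17855438, minus strand: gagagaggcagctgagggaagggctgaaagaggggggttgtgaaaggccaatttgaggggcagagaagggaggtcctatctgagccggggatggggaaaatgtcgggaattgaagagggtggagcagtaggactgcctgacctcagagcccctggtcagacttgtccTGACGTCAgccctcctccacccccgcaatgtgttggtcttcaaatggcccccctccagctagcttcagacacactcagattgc
Dio2, chr12:90739039-90739288, minus strand: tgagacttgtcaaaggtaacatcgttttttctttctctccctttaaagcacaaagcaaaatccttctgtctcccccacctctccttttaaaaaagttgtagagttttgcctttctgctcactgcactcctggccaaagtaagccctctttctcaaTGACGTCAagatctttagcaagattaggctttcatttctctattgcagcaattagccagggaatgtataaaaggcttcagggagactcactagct
Fos, chr12:85473640-85473889, plus strand: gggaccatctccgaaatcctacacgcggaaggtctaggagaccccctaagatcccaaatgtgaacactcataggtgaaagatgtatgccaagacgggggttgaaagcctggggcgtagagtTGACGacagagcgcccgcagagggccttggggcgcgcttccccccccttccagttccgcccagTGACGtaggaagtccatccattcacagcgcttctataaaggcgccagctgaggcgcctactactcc
Nr4a1, chr15:101266596-101266845, plus strand: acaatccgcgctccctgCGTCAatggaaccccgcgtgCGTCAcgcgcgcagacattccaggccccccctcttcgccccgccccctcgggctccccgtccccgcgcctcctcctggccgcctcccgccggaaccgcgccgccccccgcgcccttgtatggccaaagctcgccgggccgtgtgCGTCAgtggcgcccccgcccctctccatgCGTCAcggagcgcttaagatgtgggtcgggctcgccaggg
Nr4a2, chr2:57124004-57124253, minus strand: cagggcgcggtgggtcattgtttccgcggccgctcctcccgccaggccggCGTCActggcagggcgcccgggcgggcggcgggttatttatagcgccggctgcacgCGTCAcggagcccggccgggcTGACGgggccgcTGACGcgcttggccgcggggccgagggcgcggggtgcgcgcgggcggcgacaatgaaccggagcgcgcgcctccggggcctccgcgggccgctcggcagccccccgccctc
Nr4a3, chr4:48045055-48045304, plus strand: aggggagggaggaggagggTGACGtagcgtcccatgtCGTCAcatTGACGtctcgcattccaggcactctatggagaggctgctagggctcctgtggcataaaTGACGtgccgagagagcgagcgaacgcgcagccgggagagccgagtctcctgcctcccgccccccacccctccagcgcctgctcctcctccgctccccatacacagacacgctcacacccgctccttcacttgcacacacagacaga
Has1 and Dio2 each hold 1 full element, Fos holds 2 short elements, and each of the 3 Nr4a genes holds 4 short elements.

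The depth of the 6 samples ranged from 11310146 to 25399502 fragments counted in genes. Replicate 1 stood apart from replicates 2 and 3 in both groups: chi-squared divided by the number of genes, near 1 for a pair that differs by counting noise alone, was 14.4 and 14.0 for its pairs without forskolin and 5.95 between replicates 2 and 3. With forskolin the corresponding values were 11.9, 14.0 and 6.04. Replicate 1 was over 1.5 times higher than the mean of the others in both groups for 70 genes, 10 of them among the 28 tested adipocyte genes. The 6 adipocyte markers tested were higher in replicate 1 by a median factor of 4.10 without forskolin and 2.33 with it, on FPKM + 1, against 1.00 and 0.995 over all genes. For the adipocyte genes, and for some of the list counts and named genes that it moved across a threshold, values without replicate 1 of both groups are therefore given as well. Of the marker lists, muscle fiber genes summed to 10834 to 11268 FPKM without forskolin and 9670 to 10639 FPKM with it; the labels name the cells myoblasts. Endothelial and epithelial markers summed to at most 0.879 and 1.20 FPKM, and those of macrophages to at most 11.1 FPKM, with 3 of 6 at 0 in all 6 samples. Schwann cell and neural markers summed to 3.70 to 4.84 FPKM without and 9.29 to 14.5 FPKM with forskolin, and the 1 marker of these that rose was the tubulin Tubb3, by 1.66 on the log2 scale of FPKM + 1, while S100b fell by 0.49. Mesenchymal markers summed to 1723 to 2214 FPKM without and 1665 to 1679 FPKM with forskolin, and 3 of 6 fell. The labels do not say whether replicates were separate cultures, so p-values measure the spread between these samples.

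**Figure D1:**
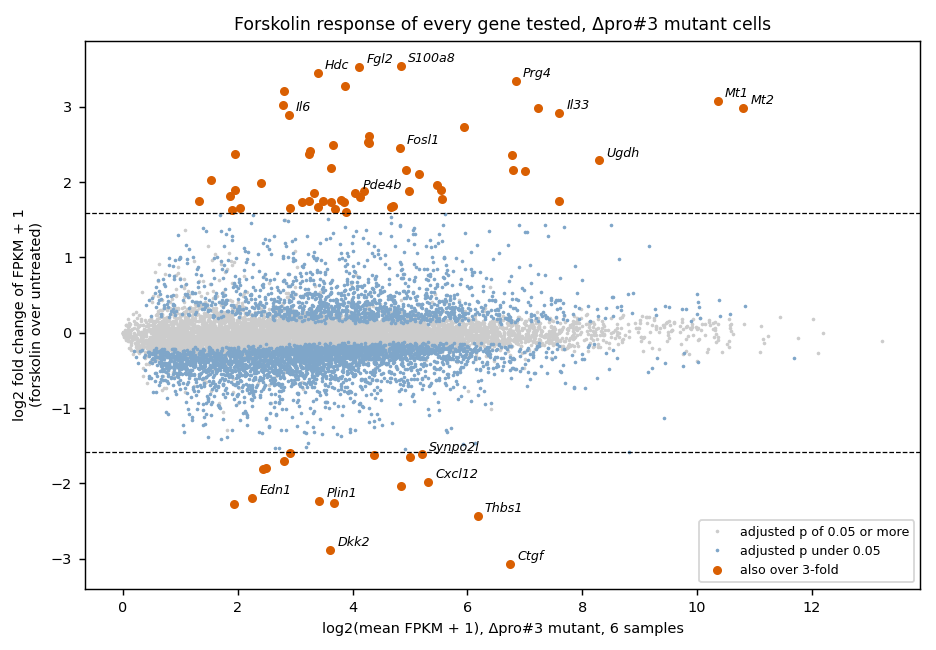
The response of each of the 12245 genes tested in Δpro#3 mutant cells, as the log2 fold change of FPKM + 1 (forskolin over untreated) against the log2 mean of FPKM + 1 over the 6 samples. Dashed lines stand at 3-fold; 56 genes lie above the upper line and 16 below the lower line with an adjusted p under 0.05.

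Forskolin raised 56 genes and lowered 16 genes by more than 3-fold in Δpro#3 mutant cells. The largest rises included the secreted protein Fgl2, the histamine-making enzyme Hdc, the metallothioneins Mt1 and Mt2, the cytokines Il33 and Il6 and the matrix protease Adamts4. The largest falls were those of Ctgf, Dkk2 and Thbs1, all secreted proteins. A gene was called when its adjusted p of limma was under 0.05 and FPKM + 1 changed more than 3-fold, a scale on which low genes show less than their full change. Of the 12245 genes tested (mean of 0.5 FPKM or more over the 18 samples at day 7), 0.457% were called higher and 0.131% lower. Without the fold threshold, 1459 genes (11.9%) rose and 2927 (23.9%) fell at an adjusted p under 0.05, with a median log2 fold change of -0.059 over all genes. These 2 shares are the background of every count of list members that rose or fell. The groups did not overlap in any of the 56 genes called higher or in 14 of the 16 called lower. Over all genes tested, the samples with forskolin all lay above those without in 15.4% and all below in 30.3%.

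Fgl2, a fibrinogen-like protein (chromosome 5 from 20878460 to 20884192, build NCBIM37), had 2.30, 1.34 and 1.53 FPKM in replicates 1 to 3 without forskolin and 40.3, 23.9 and 28.5 FPKM with it. It changed by 3.53 (SE 0.16, limma adjusted p = 8.33e-11) on the log2 scale of FPKM + 1, which was 17.9-fold on the mean FPKM. Hdc, histidine decarboxylase (chromosome 2 from 126419403 to 126445035, build NCBIM37), had 0.553, 0.627 and 1.13 FPKM without and 15.8, 18.2 and 20.8 FPKM with forskolin, a change of 3.45 (SE 0.12, limma adjusted p = 2.16e-12). Every sample with forskolin lay above every sample without it for both genes. S100a8, a subunit of the calcium-binding protein calprotectin, had 2.03, 5.46 and 3.60 FPKM without and 60.2, 46.1 and 49.0 FPKM with forskolin, and changed by 3.55 (SE 0.27, limma adjusted p = 4.38e-08). Alpl, the tissue-nonspecific alkaline phosphatase, was low without forskolin, with 0.361, 0.406 and 0.294 FPKM, and had 14.0, 10.3 and 10.7 FPKM with it. Its change was 3.22 (SE 0.10, limma adjusted p = 1.42e-12).

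The metallothioneins, which bind zinc and copper, were the most abundant of the 15 largest rises. Mt1 had 285, 315 and 233 FPKM without and 2468, 2385 and 2185 FPKM with forskolin, and Mt2 had 405, 444 and 351 FPKM without and 3159, 3379.9 and 2987 FPKM with forskolin. Their changes were 3.08 (SE 0.14, limma adjusted p = 1.35e-10) and 2.99 (SE 0.15, limma adjusted p = 2.14e-10). Among genes of the extracellular matrix, Prg4 (lubricin) had 24.9, 18.3 and 15.6 FPKM without and 257, 169 and 197 FPKM with forskolin, a change of 3.34 (SE 0.17, limma adjusted p = 3.71e-10). Adamts4, an aggrecan-cleaving protease, had 1.58, 1.78 and 1.86 FPKM without and 24.9, 23.8 and 27.9 FPKM with forskolin, and its 3.27 (SE 0.079, limma adjusted p = 9.12e-14) had the smallest standard error of the 15 largest rises. No sample without forskolin reached a sample with it for any of these 4 genes.

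Il33, Il6, Nppc and Erfe were also among the 15 largest rises and encode secreted proteins, a class that was not counted over all genes. Il33, a cytokine released from damaged cells, had 41.9, 41.5 and 49.6 FPKM without and 308, 361 and 359 FPKM with forskolin and changed by 2.92 (SE 0.15, limma adjusted p = 2.5e-10). Il6, which muscle and other cells secrete, had 0.542, 0.799 and 0.792 FPKM without and 8.06, 16.1 and 12.1 FPKM with forskolin and changed by 2.89 (SE 0.16, limma adjusted p = 7.97e-10). Nppc, the precursor of C-type natriuretic peptide, changed by 2.54 (SE 0.12, limma adjusted p = 1.38e-10), from 3.73, 5.25 and 5.20 FPKM to 28.2, 34.8 and 33.3 FPKM. Erfe, erythroferrone, a hormone that lowers hepcidin, changed by 2.61 (SE 0.16, limma adjusted p = 4.02e-09). The others among the 15 largest rises were Ramp3 (a partner of the calcitonin receptor-like receptor, 3.03), Serpina3m (a serpin, 2.98) and Gfpt2 (the first enzyme of hexosamine synthesis, 2.74), each with no overlap between the groups.

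**Figure D2:**
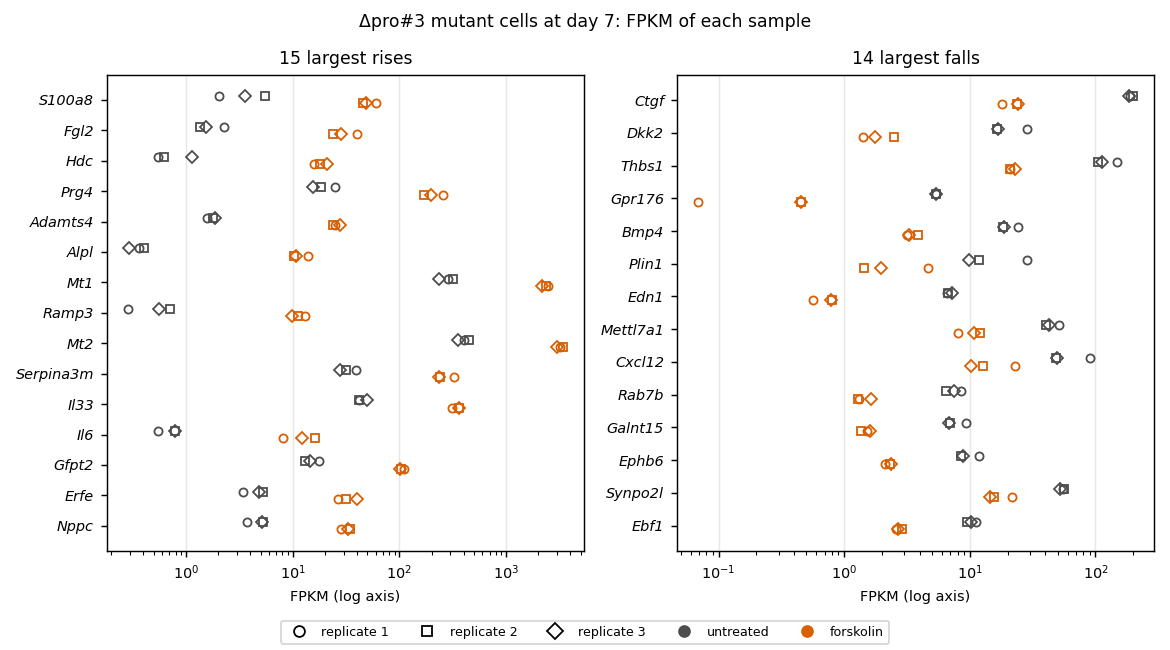
FPKM of each of the 6 Δpro#3 mutant samples (log axis) for the 15 largest rises and the 14 largest falls among the genes called with a mean of 1 FPKM or more and no overlap between the groups. Grey marks stand for samples without forskolin, orange marks for samples with it, and the shape of the mark for the replicate number.

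On the falling side, Ctgf, a matricellular protein and a standard target of YAP (chromosome 10 from 24315248 to 24318489, build NCBIM37), had 190.0, 198 and 184 FPKM in replicates 1 to 3 without forskolin and 18.2, 23.8 and 24.2 FPKM with it. Its change of -3.07 (SE 0.11, limma adjusted p = 5.55e-12) was the largest fall of all genes tested. Dkk2, a Wnt antagonist, had 28.6, 16.4 and 16.9 FPKM without and 1.42, 2.47 and 1.75 FPKM with forskolin, and changed by -2.88 (SE 0.18, limma adjusted p = 3.24e-09). Thbs1, thrombospondin, had 147, 104 and 113 FPKM without and 21.0, 20.8 and 22.9 FPKM with forskolin, a change of -2.43 (SE 0.11, limma adjusted p = 5.32e-11). Samples with and without forskolin were far apart for all 3 genes. Gpr176, an orphan G protein-coupled receptor, fell from 5.38, 5.40 and 5.33 FPKM to 0.0691, 0.456 and 0.453 FPKM, and Edn1, endothelin, fell from 6.57, 6.69 and 7.26 FPKM to 0.569, 0.805 and 0.791 FPKM. The remaining large falls were those of Bmp4 (-2.26), the lipid droplet protein Plin1 (-2.23), Mettl7a1 (-2.03), the chemokine Cxcl12 (-1.98), Rab7b (-1.81), Galnt15 (-1.79), Ephb6 (-1.70), Synpo2l (-1.61) and Ebf1 (-1.60), a transcription factor of adipocytes. Without replicate 1 of both groups Plin1 and Cxcl12 had -2.14 and -2.00 (limma adjusted p = 5.08e-10 and 1.85e-08).

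Of 7 tested genes for adenylyl cyclases, their G protein and beta-adrenergic receptors, 2 rose and 2 fell. The cyclases Adcy9 and Adcy6 changed by -0.51 and 0.32. Adcy8 had 1.35, 1.04 and 1.05 FPKM without and 2.84, 1.45 and 1.44 FPKM with forskolin, with a change of 0.41 (SE 0.14, limma adjusted p = 0.0282). Without replicate 1 with forskolin it was 0.19 (limma adjusted p = 0.142), and without untreated replicate 2 or 3 the limma adjusted p was 0.0808 and 0.0761. Without replicate 1 of both groups it was 0.26 (limma adjusted p = 0.0678), which left 1 rising member. Of 11 genes for subunits, inhibitors and anchors of protein kinase A, 2 rose and 4 fell. The regulatory subunits Prkar1a and Prkar2b rose by 0.24 and 0.34, the inhibitor Pkia changed by -0.39 and the anchor Akap6 by -1.04. Pkia did not pass with only the 6 samples in the fit or without untreated replicate 3 (limma adjusted p = 0.0528 and 0.0568).

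Of 12 phosphodiesterases, 4 rose and 4 fell, beside 11.9% and 23.9% of all genes. Pde4b, which degrades cyclic AMP and is itself a known target of CREB, had 5.76, 6.34 and 6.32 FPKM in replicates 1 to 3 without forskolin and 23.1, 27.2 and 24.5 FPKM with it, and was the 1 member called higher, with 1.86 (SE 0.073, limma adjusted p = 1.6e-11). Pde4d had 2.77, 2.54 and 2.62 FPKM without and 9.04, 10.4 and 8.39 FPKM with forskolin, a change of 1.49 (SE 0.071, limma adjusted p = 1.38e-10), and Pde3b had 6.52, 6.06 and 6.47 FPKM without and 13.4, 13.6 and 13.2 FPKM with forskolin, a change of 0.97 (SE 0.076, limma adjusted p = 5.76e-08). No sample overlapped between the groups for these 3 genes. Pde1b, a calcium-dependent enzyme, fell from 2.91, 2.55 and 2.46 FPKM to 0.579, 0.716 and 0.748 FPKM.

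Of 19 genes of the CREB family, its coactivators and the salt-inducible kinases that hold those coactivators back, 5 rose and 2 fell. Sik1 had 13.5, 15.3 and 14.2 FPKM without and 39.6, 40.6 and 41.1 FPKM with forskolin, a change of 1.44 (SE 0.077, limma adjusted p = 5.28e-10). Crem, which also encodes the inducible repressor of the pathway, had 1.74, 1.55 and 1.52 FPKM without and 4.69, 3.56 and 4.40 FPKM with forskolin, a change of 1.00 (SE 0.082, limma adjusted p = 1.15e-07). Neither gene's groups overlapped. Sik2 and Creb1 rose by 0.43 and 0.31, while Creb3l1 changed by -0.34. Without replicate 1 of both groups 3 rose, Creb1 among those lost (limma adjusted p = 0.114), and Creb3l1 had -0.24 (limma adjusted p = 0.0676). The clock gene Per1, a known target of CREB, rose by 0.71, from 22.4, 23.8 and 22.8 FPKM to 37.2, 37.4 and 40.2 FPKM.

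Of 26 early response transcription factors, 17 rose and 4 fell, against 11.9% and 23.9% of all genes, with a median log2 fold change of 0.53. Without replicate 1, 15 rose and 3 fell. Fosl1, an AP-1 subunit, was the 1 member called, with 7.21, 8.79 and 7.32 FPKM without and 45.6, 47.4 and 47.8 FPKM with forskolin and a change of 2.45 (SE 0.12, limma adjusted p = 2.57e-10). Cebpb, Nfil3 and Ier3 rose by 1.31, 1.15 and 1.21. Fos itself had 3.63, 3.81 and 3.56 FPKM without and 6.20, 4.99 and 5.04 FPKM with forskolin, a change of 0.45 (SE 0.094, limma adjusted p = 0.00132). The 4 members that fell were Egr1, Klf2, Srf and Egr2. Without replicate 1 of both groups Klf2 no longer passed (limma adjusted p = 0.244). With the replicate number as a block 18 rose and 2 fell, since Klf2 and Egr2 no longer passed (limma adjusted p = 0.0873 and 0.0561), and neither passed with median-ratio scaling (limma adjusted p = 0.0715 and 0.0613). Egr1 was the largest of these, from 20.9, 19.0 and 17.1 FPKM to 7.24, 6.23 and 6.77 FPKM, a change of -1.37 (SE 0.089, limma adjusted p = 6.38e-09).

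The NR4A nuclear receptors, fast targets of CREB, rose in Δpro#3 mutant cells by less than 3-fold. Nr4a1 had 11.2, 9.81 and 9.88 FPKM without and 17.1, 20.5 and 22.1 FPKM with forskolin, a change of 0.88 (SE 0.088, limma adjusted p = 1.08e-06). Nr4a2 had 0.687, 0.790 and 0.759 FPKM without and 1.58, 2.20 and 2.75 FPKM with forskolin, a change of 0.85 (SE 0.11, limma adjusted p = 1.65e-05). Nr4a3 had 1.64, 2.19 and 2.24 FPKM without and 5.63, 4.38 and 4.90 FPKM with forskolin, a change of 0.98 (SE 0.098, limma adjusted p = 1.08e-06). The groups did not overlap for any of the 3, whose promoters hold the 4 short elements printed above.

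Of 25 feedback regulators (phosphatases of the DUSP family, RGS, SOCS, Sprouty and GADD45 proteins), 11 rose and 3 fell, or 5 with the replicate block. Rgs2, which shortens G protein signals, had 12.3, 13.2 and 11.4 FPKM without and 50.8, 62.1 and 57.3 FPKM with forskolin, and was called higher with 2.11 (SE 0.11, limma adjusted p = 2.55e-10). Socs3, an inhibitor of cytokine receptors, had 14.7, 15.7 and 12.8 FPKM without and 35.7, 40.7 and 43.8 FPKM with forskolin, a change of 1.42 (SE 0.089, limma adjusted p = 4.33e-09). Spry1, an inhibitor of receptor tyrosine kinase signals, fell from 6.31, 7.26 and 6.50 FPKM to 2.20, 2.33 and 3.02 FPKM. Of 18 clock genes, 8 rose and 3 fell, while 2 fell with the replicate block and 1 without replicate 1. Per2, Bhlhe40 and Arntl rose by 1.20, 1.19 and 0.71.

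The promoter table held a window for 42 of the 56 genes called higher and 13 of the 16 called lower. The windows run from 250 bases before to 50 bases after the start. TGACGTCA was in a window of 3 of the 42 (Has1, Slc25a25 and Gm16062, 7.14%) and in none of the 13, against 3.69% of the 9420 tested genes with a window and 2.03% of all 27025 genes in the table. None of the 15 genes with the largest rise had it in the window. Among the genes with an adjusted p under 0.05, the share was 4.74% of 1119 that rose and 2.29% of 2269 that fell. The short element TGACG, which every full element also contains, was in the windows of 40.3% and 30.1% of the same genes, of 23.8% of those called higher, of 38.5% of the 13 called lower and of 35.8% of all tested genes. Both strands were searched. These shares describe letters in a short window and were not tested.

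**Figure D3:**
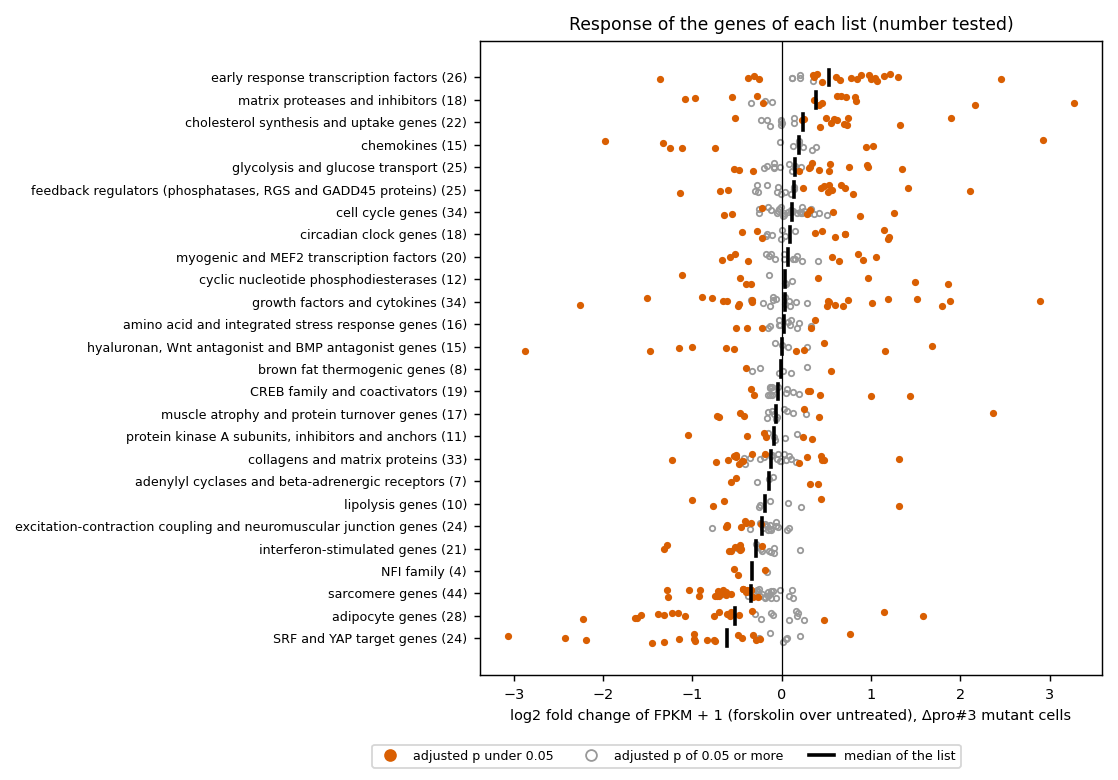
The log2 fold change of FPKM + 1 (forskolin over untreated) of each tested member of the 26 gene lists in Δpro#3 mutant cells, 1 row per list, ordered by the median (black bar). Filled orange points have an adjusted p under 0.05; the early response transcription factors have the highest median (0.53) and the SRF and YAP targets the lowest (-0.62).

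Most tested targets of SRF and YAP, the factors that report tension in the actin cytoskeleton, fell. Of 24 members, 17 fell and 1 rose, against 23.9% and 11.9% of all genes, with a median of -0.62 and with 16 falling and 1 rising without replicate 1. Beside Ctgf, Thbs1 and Edn1, which were called lower, Cyr61 (the close relative of Ctgf) fell from 96.6, 103 and 106 FPKM to 36.9, 36.6 and 35.9 FPKM, a change of -1.46 (SE 0.11, limma adjusted p = 3.21e-08). The contractile genes Tagln and Myl9 fell by 1.32 and 1.15 on the log2 scale. The member that rose was Cnn1, calponin, with 0.77. The transcription factor Srf itself changed by -0.32, and Ankrd1, another standard target of YAP, had a value of 0.06 (SE 0.15, limma adjusted p = 0.784).

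More of the tested adipocyte genes fell than rose in Δpro#3 mutant cells. Of 28 tested members, 16 fell and 3 rose, against 23.9% and 11.9% of all genes, with a median of -0.53 and 3 called lower. With median-ratio scaling 14 fell and 3 rose, with 2 called lower and 1 called higher. Fabp4, the fatty acid-binding protein of adipocytes, had 1415, 294 and 354 FPKM in replicates 1 to 3 without forskolin and 386, 103 and 137 FPKM with it. Replicate 1 was far above the others in both groups, so the groups overlapped although each replicate number had less with forskolin. The change was -1.58 (SE 0.46, limma adjusted p = 0.0139). Adipoq, adiponectin, had 65.6, 13.1 and 15.4 FPKM without and 14.3, 4.29 and 5.56 FPKM with forskolin, a change of -1.62 (SE 0.43, limma adjusted p = 0.00798). Cidec, a lipid droplet protein, had 105, 18.7 and 23.1 FPKM without and 23.4, 5.91 and 8.81 FPKM with forskolin, a change of -1.64 (SE 0.48, limma adjusted p = 0.0144). Adipoq and Cidec were the 2 genes called lower whose groups overlapped. Plin1, which coats lipid droplets, had 28.7, 11.8 and 9.93 FPKM without and 4.62, 1.43 and 1.95 FPKM with forskolin without overlap.

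All 6 tested adipocyte markers, which are also members of the list of 28, fell, with a median of -1.60. The markers summed to 347 to 1634 FPKM without forskolin and 123 to 436 FPKM with it. Without replicate 1 of both groups, 6 of the 6 markers and 16 of the 28 adipocyte genes still fell, 6 rose, and the medians were -1.39 and -0.29. In the same setting Fabp4, Adipoq and Cidec changed by -1.43, -1.37 and -1.40, and each passed the test. Adipoq and Cidec stayed under 3-fold, so that Plin1 was the 1 adipocyte gene of 3 still called lower, and 1 adipocyte gene was called higher. With 1 sample left out, Fabp4 no longer passed the test without untreated replicate 1 (-0.87, limma adjusted p = 0.0715) or without replicate 2 or 3 with forskolin (limma adjusted p = 0.0796 and 0.0564). Cidec no longer passed without the same 3 samples (limma adjusted p = 0.0707, 0.0809 and 0.0523). Adipoq passed without each of them, with -0.91, -1.32 and -1.47 (limma adjusted p = 0.0278, 0.0471 and 0.0347), and was then under 3-fold. These fits had no replicate block, and the same-numbered sample of the other group stayed in. With only these 6 samples in the fit, the limma adjusted p of Fabp4, Adipoq and Cidec was 0.115, 0.0882 and 0.111, and with the replicate number as a block in that fit 0.000164, 0.000755 and 0.000684. In bulk samples, fewer adipocytes and less of these transcripts per adipocyte cannot be told apart. Of the regulators of adipocyte differentiation, Pparg had 8.56, 7.91 and 7.88 FPKM without and 6.20, 6.93 and 5.71 FPKM with forskolin, a change of -0.33 (SE 0.072, limma adjusted p = 0.00212), and Cebpa had 14.0, 10.8 and 7.59 FPKM without and 8.99, 7.51 and 8.63 FPKM with forskolin, with -0.30 (SE 0.13, limma adjusted p = 0.0831). Without untreated replicate 3, Cebpa had -0.51 and passed (limma adjusted p = 0.000398).

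The 3 adipocyte genes that rose were Dgat1, Scd1 and Lpl. Without replicate 1 of both groups Acaca, Dgat2 and Fasn also rose, by 0.31, 0.26 and 0.39 (limma adjusted p = 0.0145, 0.0316 and 0.00218). Dgat1, which makes triglyceride, had 28.1, 21.0 and 21.6 FPKM without and 82.3, 66.1 and 68.8 FPKM with forskolin, a change of 1.58 (SE 0.098, limma adjusted p = 3.44e-09). The desaturase Scd1 rose by 1.15 and the lipoprotein lipase Lpl by 0.47. Of 10 genes of lipolysis, 2 rose and 3 fell. Hilpda, an inhibitor of the lipase ATGL, had 15.3, 20.4 and 20.0 FPKM without and 42.3, 52.5 and 47.9 FPKM with forskolin, a change of 1.32 (SE 0.10, limma adjusted p = 6.27e-08). The lipases changed the other way, with -0.77 for Lipe (hormone-sensitive lipase) and -0.64 for Pnpla2 (ATGL), and both were again highest in replicate 1. Without it they had -0.55 and -0.63 (limma adjusted p = 0.000505 and 0.000147). With only these 6 samples in the fit, neither passed (limma adjusted p = 0.109 and 0.1). With 1 sample left out, Lipe did not pass without replicate 2 with forskolin (limma adjusted p = 0.0702), and Pnpla2 did not pass without that sample, replicate 3 with forskolin or untreated replicate 1 (limma adjusted p = 0.0685, 0.0685 and 0.0816). The median of this list was -0.18 and turned to 0.0066 without replicate 1.

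**Figure D4:**
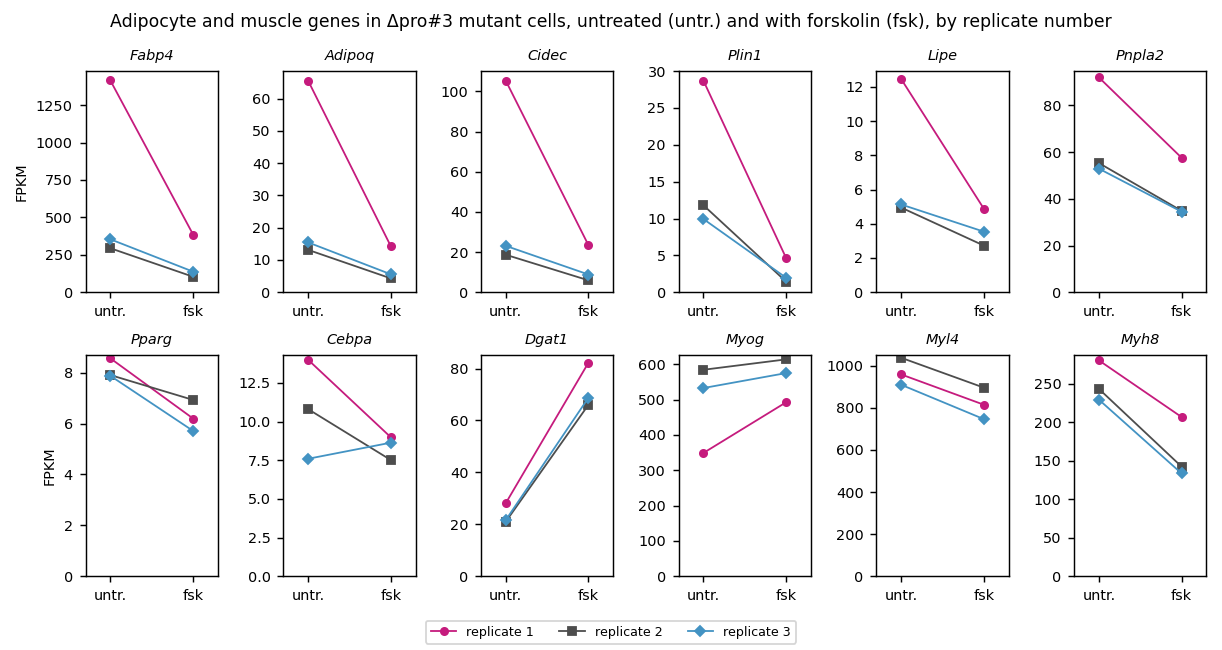
FPKM of 9 adipocyte or lipid genes and 3 muscle genes in Δpro#3 mutant cells without (untr.) and with forskolin (fsk), with lines joining samples of the same replicate number; each axis starts at 0. Replicate 1 is the highest untreated sample for Fabp4, Adipoq, Cidec, Plin1, Lipe and Pnpla2, and all 3 lines of these genes go down.

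Of 18 listed thermogenic genes of brown fat 8 were tested. Of these, 1 rose and 1 fell, against 11.9% and 23.9% of all genes, and the median was -0.0058. With the replicate block 2 rose, and without replicate 1 of both groups 2 fell. Ppargc1a, the coactivator of mitochondrial and thermogenic genes, had 0.926, 1.09 and 1.07 FPKM in replicates 1 to 3 without forskolin and 1.52, 0.982 and 1.09 FPKM with it. The samples overlapped and the change was 0.11 (SE 0.10, limma adjusted p = 0.437). Ucp1, the uncoupling protein of brown fat, was below the filter: it was at 0 in all 3 samples without forskolin and had 0.452, 0.397 and 0.192 FPKM with it, on 30 fragments in all. The exact permutation test of 3 against 3 samples gave p = 0.1, the smallest 2-sided value it can give. Cidea had 0.152, 0.0392 and 0 FPKM without and 0.0581, 0.102 and 0.0676 FPKM with forskolin, with 0.02 (SE 0.092, limma adjusted p = 0.894). It is among the 8 tested because the filter takes the mean over the 18 samples of all cells. At values this near 0, FPKM + 1 can hardly change, so the test of Cidea cannot show a response. Dio2, which makes active thyroid hormone and holds a full element, was the member that rose, with 24.3, 21.4 and 23.0 FPKM without and 38.9, 33.1 and 30.7 FPKM with forskolin and a change of 0.55 (SE 0.099, limma adjusted p = 0.000374).

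Part of the sarcomere genes fell. Of 44 sarcomere genes, 22 fell and none rose at an adjusted p under 0.05 in limma, against 23.9% and 11.9% of all genes, with a median of -0.34, and 21 fell without replicate 1. The largest falls were those of the myosin Myh2, the leiomodin Lmod3, the titin cap Tcap and Xirp1. Myh2 had 88.3, 59.5 and 56.8 FPKM without and 43.7, 23.2 and 18.8 FPKM with forskolin, a change of -1.29 (SE 0.24, limma adjusted p = 0.000518), and -1.44 without replicate 1 of both groups (limma adjusted p = 2.31e-05). Lmod3 had 76.7, 71.8 and 72.0 FPKM without and 35.4, 28.4 and 26.6 FPKM with forskolin, a change of -1.27 (SE 0.11, limma adjusted p = 1.47e-07). The perinatal myosin Myh8 changed by -0.66 (SE 0.15, limma adjusted p = 0.00325). For the embryonic light chain Myl4, with 959, 1038 and 909 FPKM without and 815, 896 and 746 FPKM with forskolin, the change was -0.24 (SE 0.11, limma adjusted p = 0.104). Each replicate number had less Myl4 with forskolin, and the change passed with the replicate block and only these 6 samples in the fit (limma adjusted p = 0.0107).

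Of 24 genes of excitation-contraction coupling and the neuromuscular junction, 8 fell and none rose, against 23.9% and 11.9% of all genes, with a median of -0.22 and Cacna1s at -0.62. With the replicate block 6 fell. The myogenic regulators Myog and Myod1 did not pass the test. Myog had 349, 584 and 533 FPKM without and 493, 614 and 575 FPKM with forskolin and Myod1 had 33.9, 50.2 and 40.2 FPKM without and 47.3, 54.7 and 62.9 FPKM with forskolin, with 0.23 (SE 0.17, limma adjusted p = 0.32) and 0.41 (SE 0.16, limma adjusted p = 0.061). Myod1 passed the threshold with the replicate block (limma adjusted p = 0.0362), and without untreated replicate 2 or forskolin replicate 1 (limma adjusted p = 0.0195 and 0.0375). Of 20 myogenic and MEF2 factors, 5 rose and 4 fell. Pax7, a factor of satellite cells, rose by 0.85 and Id2, an inhibitor of bHLH factors, by 0.91, while Smyd1, a muscle methyltransferase, fell by 0.67.

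Among 18 proteases of the matrix and their inhibitors, 10 rose and 5 fell, with a median of 0.39, where 11.9% of all genes rose and 23.9% fell. Adamts4 and Plaur were called higher. Plaur, the urokinase receptor, had 9.21, 9.79 and 11.2 FPKM without and 38.1, 55.8 and 53.3 FPKM with forskolin, a change of 2.16 (SE 0.15, limma adjusted p = 1.09e-08). Adamts5, the other main aggrecanase, fell from 25.5, 26.8 and 26.5 FPKM to 14.1, 11.5 and 10.3 FPKM, opposite to Adamts4. Of 33 collagens and matrix proteins, 6 rose and 11 fell, to be read against the same shares. Col12a1 rose by 1.32 and Col8a1 fell by 1.23.

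Of 15 genes for hyaluronan synthesis and for antagonists of Wnt and BMP, 5 rose and 6 fell. The hyaluronan synthases Has1 and Has2 both rose. Has1, with the full element in its promoter, had 11.5, 12.3 and 10.3 FPKM without and 34.3, 39.6 and 42.7 FPKM with forskolin, a change of 1.69 (SE 0.11, limma adjusted p = 8.59e-09), and Has2 had 2.44, 2.70 and 2.53 FPKM without and 6.83, 7.24 and 6.65 FPKM with forskolin, a change of 1.15 (SE 0.13, limma adjusted p = 2.92e-06). The Wnt antagonist Sfrp4 fell like Dkk2, from 114, 73.7 and 78.0 FPKM to 25.8, 33.3 and 33.3 FPKM. Other genes called higher were named after their values were seen. They included Ugdh (2.29), which makes the UDP-glucuronate of hyaluronan and other glycosaminoglycans, and Uap1 (2.16), which makes UDP-N-acetylglucosamine. Csgalnact1 (2.18) and Chst11 (1.77), enzymes of chondroitin sulfate, and the proteoglycan Vcan (2.15) were also among them. These genes were in none of the lists, so the share of such genes that rose was not counted.

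Of 34 growth factors and cytokines 12 rose and 10 fell, and of 15 chemokines and related cytokines 3 rose and 5 fell, beside 11.9% and 23.9% of all genes. The binding proteins Igfbp4 and Igfbp2 were called higher with 1.88 and 1.80. Bmp4 fell from 24.1, 18.2 and 18.6 FPKM to 3.15, 3.87 and 3.27 FPKM, a change of -2.26 (SE 0.11, limma adjusted p = 1.29e-10). Cxcl12 had 90.0, 48.3 and 49.3 FPKM without and 23.1, 12.6 and 10.3 FPKM with forskolin, and Cx3cl1 fell by 1.32. Of 21 interferon-stimulated genes, 10 fell and none rose, against 23.9% and 11.9% of all genes, with a median of -0.29. With median-ratio scaling 6 fell. Ifit2 had 11.9, 11.5 and 11.7 FPKM without and 4.23, 4.40 and 3.67 FPKM with forskolin, a change of -1.32 (SE 0.079, limma adjusted p = 2.56e-09). These genes were also higher in replicate 1, by a median factor of 1.47 without and 1.17 with forskolin, and 7 fell without it.

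Of 22 genes of cholesterol synthesis and uptake, 12 rose and 1 fell, against 11.9% and 23.9% of all genes, with a median of 0.24. Pmvk, phosphomevalonate kinase, was called higher, with 21.1, 17.8 and 17.7 FPKM without and 68.0, 74.9 and 75.2 FPKM with forskolin and a change of 1.89 (SE 0.076, limma adjusted p = 1.87e-11). Sqle, squalene epoxidase, had 32.7, 34.0 and 36.8 FPKM without and 83.3, 88.6 and 91.4 FPKM with forskolin, a change of 1.32 (SE 0.063, limma adjusted p = 1.38e-10). Of 25 genes of glycolysis and glucose transport, 11 rose and 3 fell, against the same shares of all genes, with a median of 0.15. The glucose transporter Slc2a1 had 60.8, 77.0 and 82.6 FPKM without and 175, 183 and 203 FPKM with forskolin, a change of 1.34 (SE 0.099, limma adjusted p = 2.94e-08), and hexokinase Hk2 rose by 0.76.

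Of 17 genes of muscle atrophy and protein turnover, 3 rose and 4 fell. Ddit4, an inhibitor of mTOR complex 1, was called higher, with 29.7, 43.1 and 32.7 FPKM without and 169.6, 180.2 and 199 FPKM with forskolin and a change of 2.36 (SE 0.12, limma adjusted p = 2.31e-10), while the ubiquitin ligase Fbxo32 fell by 0.47. Of 34 cell cycle genes, 5 rose and 3 fell. The D cyclins went apart, with 1.26 for Ccnd2 and -0.64 for Ccnd1. Of 16 genes of the amino acid and integrated stress response, 2 rose and 3 fell, Nupr1 by 0.51.

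The introduced gene itself was measured as Nfia (chromosome 4 from 97439425 to 97868605, build NCBIM37). The values do not separate the endogenous from the introduced gene. It had 480.5, 383 and 374 FPKM in replicates 1 to 3 without forskolin and 344, 262 and 277 FPKM with it. Its change was -0.49 (SE 0.11, limma adjusted p = 0.00236), and it missed the threshold at a pseudocount of 0.1 (limma adjusted p = 0.0719). Control cells had 0.143 FPKM on average in either condition. Of the 4 NFI genes, 3 fell and none rose, and 2 fell with the replicate block. Nfix fell from 19.0, 18.9 and 15.6 FPKM to 12.4, 10.7 and 12.6 FPKM, and Nfib had a change of -0.18 (SE 0.065, limma adjusted p = 0.0369) that did not pass with the replicate number as a block (limma adjusted p = 0.0818). Nfic had -0.16 (SE 0.096, limma adjusted p = 0.196), and without replicate 3 with forskolin -0.28, which passed (limma adjusted p = 0.0256).

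The response was then set against that of control and full-length NFIA-expressing cells, in the same fit. Control cells had 30 genes called higher and 18 lower (0.245% and 0.147% of those tested), and full-length NFIA-expressing cells 73 and 18 (0.596% and 0.147%). Of the 56 genes called higher in Δpro#3 mutant cells, 16 were also called in control cells (28.6% of the 56 and 53.3% of the 30) and 23 in full-length NFIA-expressing cells (41.1% of the 56 and 31.5% of the 73). Of the 16 called lower, 7 were also called in control cells (43.8% of the 16, 38.9% of the 18) and 3 in full-length NFIA-expressing cells (18.8% and 16.7%). The 56 genes had a median log2 fold change of 2.07 in the cells that chose them, 1.29 in control cells and 1.43 in full-length NFIA-expressing cells, and 49 of them rose at an adjusted p under 0.05 in each of the other two. Of all genes tested, 7.05% rose in control and 13.9% in full-length NFIA-expressing cells by that rule.

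The difference in response was tested itself, as an interaction on the scale of FPKM + 1. It passed an adjusted p of 0.05 for 608 genes against control cells (4.97% of those tested, 302 with the higher and 306 with the lower response in Δpro#3 mutant cells) and for 2652 genes against full-length NFIA-expressing cells (21.7%, 1932 and 720). The 2 tests share the Δpro#3 mutant samples. The 56 genes called higher were chosen on the response that both tests contain. On that scale, 33 of them responded more than in control cells and 32 more than in full-length NFIA-expressing cells. Ratios of mean FPKM can order low genes otherwise. Odf3l2, one of the 33, went from 0.0334 to 1.27 FPKM in control cells and from 2.78 to 20.5 FPKM here. Il6, one of the 32, went from 0.113 to 3.66 FPKM with full-length NFIA and from 0.711 to 12.1 FPKM here. Mt1 responded by 3.08 against 1.47 in control and 0.95 in full-length NFIA-expressing cells, Prg4 by 3.34 against 2.12 and 1.20, and Rgs2 by 2.11 against 0.98 and -0.22. Another 13 responded less than in full-length NFIA-expressing cells on the scale of FPKM + 1, among them Fgl2, Ramp3, Ugdh, Vdr and Pde4b. Of the 16 genes called lower, 6 fell more than in control cells and 12 more than in full-length NFIA-expressing cells.

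**Figure D5:**
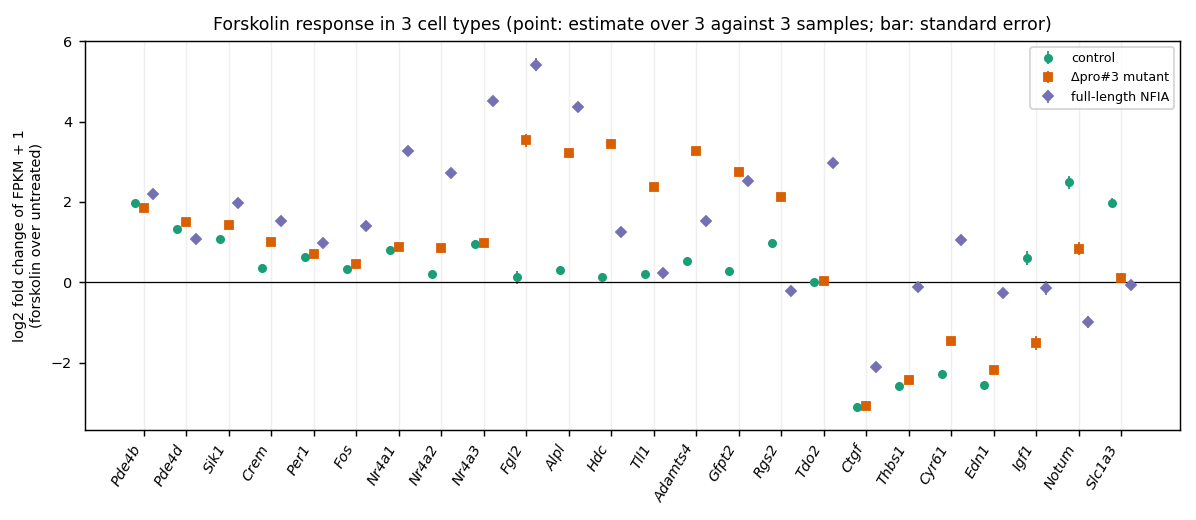
The log2 fold change of FPKM + 1 with forskolin in control (green), Δpro#3 mutant (orange) and full-length NFIA-expressing cells (purple) for 24 genes named in the text; bars are standard errors of 3 against 3 samples and are often smaller than the mark. The Nr4a genes stand highest in full-length NFIA-expressing cells, Hdc, Tll1 and Adamts4 in Δpro#3 mutant cells, and Notum and Slc1a3 in control cells, all on this scale.

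On the scale of FPKM + 1, Fgl2, Alpl and Gfpt2 responded by over 3-fold in Δpro#3 mutant and full-length NFIA-expressing cells and by less in control cells. Fgl2 had 0.295 ± 0.150 and 0.412 ± 0.118 FPKM without and with forskolin in control cells (SD, n = 3) and, with full-length NFIA, 0.698 ± 0.103 and 71.5 ± 8.10 FPKM. Its response was 3.53 in Δpro#3 mutant cells, 0.13 in control cells and 5.41 in full-length NFIA-expressing cells, and it differed from both (limma adjusted p = 9.52e-08 and 2.24e-05). On that scale Alpl followed the same order, with 3.22, 0.32 and 4.37. It was near 0 in control cells, with 0.0285 ± 0.0322 and 0.283 ± 0.128 FPKM (SD, n = 3) without and with forskolin, and on fragments instead of FPKM + 1 its difference from control cells was 1.74 (limma adjusted p = 0.248). With full-length NFIA it went from 5.13 ± 0.626 to 125 ± 4.52 FPKM (SD, n = 3), and as a ratio of mean FPKM this rise was smaller than that in Δpro#3 mutant cells (33.0-fold), so the order of these cells depends on the scale. Gfpt2 was also low in control cells, with 0.0961 ± 0.0410 and 0.339 ± 0.0778 FPKM (SD, n = 3). Gfpt2 had 2.74, 0.29 and 2.52, and its difference from full-length NFIA-expressing cells did not pass (limma adjusted p = 0.23). That difference was 0.21 with a standard error of 0.12.

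On the scale of FPKM + 1, Hdc, Tll1 and Adamts4 had their largest response in Δpro#3 mutant cells. Hdc had 0.208 ± 0.0325 FPKM with forskolin in control cells and 2.58 ± 0.213 FPKM in full-length NFIA-expressing cells (SD, n = 3), against 18.3 ± 2.46 FPKM here. Its response exceeded theirs by 3.32 (SE 0.16, limma adjusted p = 2.19e-09) and 2.20 (SE 0.16, limma adjusted p = 1.96e-07). Tll1, a relative of the procollagen protease BMP1, had 0.143, 0.231 and 0.366 FPKM without and 5.62, 5.11 and 5.70 FPKM with forskolin here, and 0.167 ± 0.0801 and 0.187 ± 0.0518 FPKM with forskolin in control and full-length NFIA-expressing cells (SD, n = 3), where it was at 0.00443 ± 0.00767 and 0.0130 ± 0.0113 FPKM without forskolin. On fragments instead of FPKM + 1, its difference from full-length NFIA-expressing cells was 0.73 (limma adjusted p = 0.547). As a ratio of mean FPKM, the rise of Tll1 in control cells, on values near 0, was larger than the 22.2-fold here, so its order depends on the scale. Adamts4 responded with 3.27, 0.52 and 1.52 in Δpro#3 mutant, control and full-length NFIA-expressing cells.

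The NR4A genes responded less than in full-length NFIA-expressing cells. Nr4a3 reached 48.4 ± 2.42 FPKM there with forskolin, from 1.17 ± 0.145 FPKM (SD, n = 3), a response of 4.51 against 0.98 in Δpro#3 mutant and 0.95 in control cells. The difference was -3.53 (SE 0.14, limma adjusted p = 1.09e-10). It was -2.39 for Nr4a1 and -1.88 for Nr4a2. Against control cells, the differences of Nr4a1 and Nr4a3 were 0.07 (SE 0.12) and 0.04 (SE 0.14), and neither passed (limma adjusted p = 0.824 and 0.918).

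Ppargc1a and Dio2 also responded less. Ppargc1a rose from 4.23 ± 0.0711 to 14.0 ± 1.79 FPKM (SD, n = 3) with full-length NFIA, and its response differed from that in Δpro#3 mutant cells by -1.40 (SE 0.14, limma adjusted p = 4.24e-06). For Dio2 the difference was -1.11 (SE 0.14, limma adjusted p = 3.76e-05). Ucp1 reached 1.08 ± 0.116 FPKM (SD, n = 3) there and stayed at 0 in control cells. Tdo2, tryptophan dioxygenase, rose to 10.7 ± 1.23 FPKM (SD, n = 3) there and was at most 0.0414 FPKM in the 6 Δpro#3 mutant samples. Of the 8 thermogenic genes, 3 differed in response from full-length NFIA-expressing cells and none from control cells in limma at an adjusted p under 0.05, where 21.7% and 4.97% of all genes differed.

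Differences were smaller for Pde4b, Sik1 and Crem. For Pde4b, the difference from control cells was -0.11 (SE 0.10, limma adjusted p = 0.609) and that from full-length NFIA-expressing cells -0.34 (SE 0.10, limma adjusted p = 0.0243). Sik1 differed by 0.36 and -0.53, and Crem by 0.63 and -0.53, in the same order. Crem thus lay between the other cells, and both of its differences passed (limma adjusted p = 0.00404 and 0.00412). Pde4b rose in all 3 cells, from 5.87 ± 0.507 to 25.9 ± 0.560 FPKM in control and from 2.62 ± 0.196 to 15.7 ± 1.16 FPKM with full-length NFIA (SD, n = 3).

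Among the falling genes, Ctgf and Thbs1 had a response nearer to that of control cells. Ctgf changed by -3.07 here, -3.11 in control and -2.11 in full-length NFIA-expressing cells, and Thbs1 by -2.43, -2.57 and -0.11. Cyr61 fell here and rose there: the response was -1.46 in Δpro#3 mutant, -2.28 in control and 1.05 in full-length NFIA-expressing cells. Over the 24 genes, 3 differed in response from control cells and 9 from full-length NFIA-expressing cells, against 4.97% and 21.7% of all genes, with medians of -0.62, -0.65 and -0.38 in the 3 cells. For adipocyte genes, the numbers were 3 and 7 of 28. The difference of Fabp4 was -1.19 (SE 0.65) from control cells and -1.48 (SE 0.65) from full-length NFIA-expressing cells, and neither passed (limma adjusted p = 0.344 and 0.121). That of Plin1 passed against both, with -1.55 and -1.51 (limma adjusted p = 0.039 and 0.0151).

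Of the genes with a mean of 1 FPKM or more in the cells compared whose response differed from control cells, Igf1 lay furthest below. It had 16.4, 9.30 and 11.8 FPKM without and 4.60, 3.37 and 3.05 FPKM with forskolin, a change of -1.51 (SE 0.18, limma adjusted p = 5.63e-06), while it went from 6.89 ± 0.924 to 11.1 ± 2.47 FPKM in control cells (SD, n = 3). The difference was -2.11 (SE 0.25, limma adjusted p = 0.000118). The glutamate transporter Slc1a3 went from 2.48 ± 0.195 to 12.9 ± 2.48 FPKM in control cells (SD, n = 3) and had 2.02, 1.71 and 1.87 FPKM without and 2.28, 2.34 and 1.74 FPKM with forskolin in Δpro#3 mutant cells, where the groups overlapped. Notum, which inactivates Wnt proteins, rose in both, by 0.84 in Δpro#3 mutant and 2.49 in control cells.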

How the data were processed

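RNA of C2C12 cells was sequenced from stranded poly(A) libraries. The authors aligned reads to mm9 with STAR 2.5.3a and deposited FPKM values of uniquely mapped fragments on the matching strand, 1 file per sample. Depth limits genes of low FPKM most. FPKM steps gave whole fragments, within 0.02, for at least 99.97% of values, and these were used only for depths, chi-squared values and an alternative.

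From these values, log2(FPKM + 1) of the 18 samples at day 7 was fitted in limma 3.58.1 (R 4.3.3) with 1 mean per group, a trend, and Benjamini-Hochberg adjustment over the 12245 genes with a mean of 0.5 FPKM or more. Genes were called at an adjusted p under 0.05 and over 3-fold. Figures used Python 3.11.15 and matplotlib 3.10.9. Groups came from the labels, and the day 0 samples were not analysed here. A set of 26 entries with symbols turned into dates stayed unnamed, and the values of some list members are not reported here. Each gene's values were compared with 26 pathway lists and 7 marker lists. The members, lists and tests were chosen with earlier results of these data known. The text names up to 15 genes called in each direction with a mean of 1 FPKM or more and no overlap (14 fell so), up to 4 genes per list, 6 per direction for each difference, and fixed genes. Promoters were to be shown for the largest rises that hold TGACGTCA, and no gene qualified. The fit was run on simulated counts drawn without a replicate effect, so that run cannot show how it handles replicate 1 or the pairing. Alternatives were the pseudocount, scaling, the filter, the trend, the samples in the fit, limma-voom on fragments, a 2-fold threshold, the replicate block and each replicate left out. Leaving out replicate 1 of both groups was chosen after seeing the data.

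Deviations from the group means of same-numbered Δpro#3 mutant samples correlated at 0.358, 0.156 and 0.102 over genes, all over 0.1, so the numbers were taken to pair these samples. Untreated replicate 3 correlated more with replicate 2 with forskolin (0.242) than with its own number. The main fit held no replicate block, so p-values printed without naming the block do not use this pairing. The block moved p-values in both directions. For Fabp4 the limma adjusted p was 0.0139 in the main fit and 9.22e-07 with the block. For Myod1 the values were 0.061 and 0.0362, and for Nfib 0.0369 and 0.0818.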

Additional observations from a re-analysis of the deposited data

Results flagged for a closer look

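The genes below are those whose response to forskolin in Δpro#3 mutant cells differed most from that in the other cells by the interaction test of limma. They were taken from genes with a mean of 1 FPKM or more in the cells compared, up to 6 in each direction for each comparison. Values are the log2 response on FPKM + 1 in Δpro#3 mutant cells minus that in the other cells.

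Against control cells, the response was larger for Fgl2 by 3.405, for Hdc by 3.32 and for Alpl by 2.90. It was also larger for the entries Rpl14-ps1 (3.01), Gm48909 (2.91) and Gm15501 (2.85). These 3 entries did not pass the test in Δpro#3 mutant cells and fell in control cells, with mean FPKM of 81.0, 46.4 and 29.2 without and 9.84, 5.78 and 3.34 with forskolin. Rpl14-ps1 and, in the RefSeq table, Gm48909 are pseudogenes, which can share reads with their parent genes, so their values are uncertain. The response was smaller than in control cells for the growth factor Igf1 (-2.11), the microRNA entry Mir1192 (-2.08), the glutamate transporter Slc1a3 (-1.87), the acute phase protein Orm3 (-1.80), the Wnt deacylase Notum (-1.65) and the chemokine Cxcl5 (-1.59). Slc1a3 and Cxcl5 had 0.12 and 0.19 in Δpro#3 mutant cells and rose by 1.98 and 1.78 in control cells.

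Compared with full-length NFIA, the response was larger for S100a8 by 2.86, Mir6392 by 2.54, Gm6093 by 2.47, Rgs2 by 2.33, Hdc by 2.20 and Tll1 by 2.15. S100a8 was already at 78.0 ± 11.7 FPKM (SD, n = 3) without forskolin in full-length NFIA-expressing cells. A smaller response was found for Nr4a3 (-3.53), Tdo2 (-2.94), Mir1938 (-2.52), Cyr61 (-2.51), Nr4a1 (-2.39) and Thbs1 (-2.32). Tdo2 was near 0 in the Δpro#3 mutant samples with and without forskolin, so its difference restates the rise in full-length NFIA-expressing cells. Mir1192, Mir6392 and Mir1938 are short entries, for which poly(A) libraries do not measure the mature microRNA. The difference of Mir1192 did not pass in 7 of the alternatives (limma adjusted p = 0.0535 to 0.103), that of Mir6392 with a pseudocount of 0.1 (0.301) or limma-voom (0.101), nor that of Mir1938 (0.261 and 0.0684).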

How the results depend on the processing

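Against 56 genes called higher and 16 lower, a pseudocount of 0.1 gave 89 and 61, limma-voom on fragments 100 and 85, and a 2-fold threshold 160 and 103. All 72 genes were among those called with the pseudocount of 0.1 and with limma-voom. Leaving out 1 sample gave 12 (untreated replicate 1) to 26 (forskolin replicate 1) genes called lower, and 399 (forskolin replicate 3) to 886 (forskolin replicate 1) genes differing from control cells, against 608. Without replicate 1 of both groups 72 genes were called, 65 of them shared. With the replicate block the same 56 and 16 genes were called, and 699 and 2559 genes differed from control and full-length NFIA-expressing cells. Of the genes named by the rule, Orm3 and Myod1 newly passed with the block (limma adjusted p = 0.0172 and 0.0362) and Nfib no longer did (0.0818). With the block and only the groups compared, Orm3, Myod1 and Myl4 newly passed (limma adjusted p = 0.0104, 0.0234 and 0.0107). Counts in the gene lists that the block changed by over 1.5 times are given in the report.

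The following values changed sign or went to 0. Rpl14-ps1 had -0.014 without replicate 1 of both groups and -0.042 to 0.19 with 1 sample left out, Gm48909 -0.018 to 0.23, and Gm15501 -0.011 with limma-voom, -0.18 without replicate 1 and -0.17 to 0.18. Mir6392 had 0 without replicate 1 and -0.70 to 0 with 1 sample left out, Mir1938 0.56 with a pseudocount of 0.1, 0.28 with limma-voom, 0.26 without replicate 1 and -0.63 to 0.30, Ppargc1a -0.033 without replicate 1 and Cidea -0.024 to 0.078. List medians did so for thermogenic genes, with 0.074 (pseudocount of 0.1), 0.016 (median-ratio scaling), 0.059 (limma-voom), 0.018 (without replicate 1) and -0.058 to 0.017. They did so for lipolysis genes, with 0.0066 without replicate 1 and -0.30 to 0.072, for the list of hyaluronan genes and Wnt and BMP antagonists, with -0.0091 without replicate 1 and -0.047 to 0.087, for amino acid and stress response genes, with -0.051 and -0.11 to 0.15 in the same settings, for growth factors, with -0.094 at a minimum of 5 FPKM, and also with only the groups compared and without untreated replicate 3, for the CREB family without replicate 2 with forskolin, and for cell cycle genes, with -0.018 at that minimum and -0.019 to 0.22. The causes were not tested.

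Over the alternatives, 2259 values of named genes kept direction and side of the threshold, 64 no longer passed, 13 newly passed and 18 changed sign.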
